A study of Mus musculus with 28 samples.

Results

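Expression of 7 subunit genes of the GABA-A receptor, out of 19938 genes measured, was followed across 28 arrays of mouse cells of strain 129SvEv: Gabra2, Gabra3, Gabra4 and Gabra5, which encode α subunits, Gabrb1 and Gabrb2, which encode β subunits, and Gabrg3, which encodes a γ subunit. Each gene was represented by a probe set that the platform annotation assigns to that gene alone; where a gene had several such probe sets, as Gabrb2 did, the brightest on average over the 28 arrays stood for it. The choice is a named list and not the whole family: 9 other GABA-A and GABA-rho subunit genes were measured and are given as a group.
The study asked how the transcriptome of neurons depends on topoisomerase IIβ (Top2β), an enzyme that passes DNA strands through each other and that neurons make after they stop dividing. Knockout (KO) cells lacking Top2β and wild-type (WT) cells were profiled at 4 stages: embryonic stem (ES) cells, neuronal progenitors (NP) and the stages labelled TN day 2 and TN day 6, a term the labels do not spell out, with 2 arrays per group up to TN day 2 and 3 per group at TN day 6. In another experiment, cells at TN day 5 had received ICRF-193, an inhibitor of type II topoisomerases, or the solvent DMSO, with 2 arrays each. In the last experiment, cortical glutamatergic neurons taken at E16.5, a late embryonic day, had received ICRF-193 or DMSO, with 3 arrays each. The labels give ICRF-193 at 50 µM, renewed every 24 h over TN days 2 to 5, for all samples, and do not say how the cortical neurons were timed. The drug groups carry no genotype label, and no label says how the knockout was made, how many clones were used or whether replicates were separate cultures or animals. All values are from total RNA of whole cultures, so a lower value from fewer cells of a type and one from less RNA per cell cannot be told apart.

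Some facts of the whole series bear on these genes. The deposited values are log2 expression values, on which 1 unit is a doubling. The medians of the arrays lay between 6.12 and 6.43, and arrays of a group correlated at 0.974 in KO ES cells and at 0.984 to 0.996 in the other groups. Top2b, the targeted gene, checked the genotype labels: at TN day 6 it read 9.04, 8.68 and 9.0 in KO cells, against 11.32, 11.19 and 11.15 in WT cells, and no KO array reached a WT array at any stage. The files do not show whether the region its probes cover was removed in the knockout. In ES cells the fall was smaller, to 7.11 and 5.79 in KO cells, against 7.96 and 7.52 in WT cells. Marker genes bore out the stages: 10 pluripotency genes averaged 6.08 in WT NP cells, against 10.53 in WT ES cells, and 15 pan-neuronal genes averaged 10.73 in WT cells at TN day 2. Marker genes of cortical projection neurons were high in cortical neurons (Neurod6 at 10.55 with DMSO) and low in TN cells (Neurod6 at 4.10 at TN day 5 with DMSO). In the cortical neurons labelled glutamatergic, 12 GABAergic markers averaged 8.42 with DMSO, and ranged from 4.94 for Pvalb to 10.96 for Sst. Among them Gad1 read 10.39 and Dlx1 9.51, against 9.65 and 5.96 at TN day 5 with DMSO.

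GABA-A receptors are chloride channels made of subunits that surround a pore, and they carry most fast inhibition in the brain. GABA binds where an α and a β subunit meet, benzodiazepines bind where certain α subunits meet a γ subunit, and the α subunit also sets where in the neuron a receptor sits and how it responds to GABA. In the embryonic cortex α2, α3 and α5 are prominent. Most of the family lies in clusters, and the neighbours found in the RefSeq annotation of GRCm38.p6 were Gabrg1, Gabra2, Gabra4 and Gabrb1 on chromosome 5, Gabrg3 and Gabra5 on chromosome 7, Gabra6 and Gabrb2 on chromosome 11, and Gabra3 and Gabrq on chromosome X.

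The start regions of 4 members are shown because they belong to 2 pairs of cluster neighbours whose values are set side by side below. Gabra4 and Gabrb1 lie head to head on opposite strands with 388 bases of overlap at their starts, and Gabra5 and Gabrg3 are neighbours on the same strand. The windows hold 250 bases before and 50 bases after the annotated start, read 5′ to 3′ on the gene's own strand, from RefSeq on GRCm38.p6: chr5:71658259-71658558 on the minus strand for Gabra4, chr5:71657671-71657970 on the plus strand for the first start of Gabrb1, chr7:57510010-57510309 on the minus strand for Gabra5 and chr7:57387166-57387465 on the minus strand for Gabrg3. Capitals mark GC boxes, the letters GGGCGG on either strand.
Gabra4: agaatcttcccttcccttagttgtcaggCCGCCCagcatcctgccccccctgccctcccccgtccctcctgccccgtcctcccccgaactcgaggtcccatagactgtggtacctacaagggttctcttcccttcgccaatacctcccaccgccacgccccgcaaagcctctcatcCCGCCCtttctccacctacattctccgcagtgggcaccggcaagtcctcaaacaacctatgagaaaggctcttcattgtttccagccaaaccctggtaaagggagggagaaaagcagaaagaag
Gabrb1: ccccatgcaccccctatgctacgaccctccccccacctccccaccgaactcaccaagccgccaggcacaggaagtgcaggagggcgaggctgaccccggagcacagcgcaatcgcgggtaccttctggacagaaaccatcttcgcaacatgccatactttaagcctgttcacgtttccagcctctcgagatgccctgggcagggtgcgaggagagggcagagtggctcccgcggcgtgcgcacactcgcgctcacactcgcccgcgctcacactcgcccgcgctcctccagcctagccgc
Gabra5: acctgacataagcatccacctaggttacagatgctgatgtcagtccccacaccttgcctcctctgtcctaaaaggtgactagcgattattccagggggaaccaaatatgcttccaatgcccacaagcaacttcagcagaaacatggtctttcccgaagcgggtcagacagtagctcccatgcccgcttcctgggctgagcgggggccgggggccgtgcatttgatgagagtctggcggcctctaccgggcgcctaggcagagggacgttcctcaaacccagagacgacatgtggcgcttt
Gabrg3: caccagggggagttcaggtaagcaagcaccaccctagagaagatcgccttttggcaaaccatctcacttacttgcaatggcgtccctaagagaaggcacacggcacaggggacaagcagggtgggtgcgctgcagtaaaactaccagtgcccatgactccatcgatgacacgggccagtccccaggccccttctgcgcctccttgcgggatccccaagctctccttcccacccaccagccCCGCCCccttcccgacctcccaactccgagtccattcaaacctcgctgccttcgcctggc
The Gabra4 window held 2 GC boxes and the Gabrg3 window 1, and the windows of Gabra5 and Gabrb1 held none; 35.7% of 32851 annotated windows of this length hold at least 1. None of the 4 windows held TATAAA (13.6% of windows), CAGCTG (16.3%), TGACGTCA (1.8%) or GCGTGGGCG (0.6%). Their GC content was 58.7% for Gabra4, 66.0% for Gabrb1, 56.7% for Gabra5 and 61.0% for Gabrg3, against a median of 52.7%. Of the members whose windows are not printed, the first window of Gabra3 had 43.0% GC, no CpG and a TATAAA, and that of Gabrb2 had 59.0% GC, a GC box and a TATAAA. A match to such letters is a description of the window and not a binding site.

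Every member except Gabra3 and Gabra4 had its highest group mean in cortical neurons given DMSO. The highest and lowest group means of Gabra2 were 10.29 in DMSO cortical neurons and 4.28 in WT NP cells. Those of Gabra5 were 10.64 and 5.51 in the same groups, and those of Gabrb1 8.93 and 4.33. Gabrb2 was highest in DMSO cortical neurons at 10.24 and lowest in WT ES cells at 5.12. Gabra4 was highest in cortical neurons with ICRF-193 at 8.80 and lowest in WT NP cells at 5.60, and its highest group overlapped the DMSO cortical neurons.
The narrowest ranges belonged to Gabra3 (lowest mean 6.97 in KO cells and highest 8.68 in WT cells, both at TN day 6) and to Gabrg3 (highest mean 7.11 in DMSO cortical neurons and lowest 5.15 in WT cells at TN day 2). When the 12 groups were put in order of their means, the arrays of neighbouring groups overlapped in 2 of 11 neighbour pairs for Gabrb2, 5 for Gabra2 and Gabra5, 6 for Gabra4, 8 for Gabra3 and Gabrb1, and 10 for Gabrg3. The order of Gabrb2, from low to high, was ES WT, ES KO, NP KO, NP WT, TN day 2 KO, TN day 2 WT, TN day 5 ICRF-193, TN day 5 DMSO, TN day 6 KO, TN day 6 WT, cortical ICRF-193 and cortical DMSO, and only TN day 5 ICRF-193 with TN day 5 DMSO and TN day 5 DMSO with TN day 6 KO overlapped. For Gabra2 the order was NP WT, NP KO, ES KO, ES WT, TN day 2 KO, TN day 2 WT, TN day 6 KO, TN day 5 ICRF-193, TN day 5 DMSO, TN day 6 WT, cortical ICRF-193 and cortical DMSO; the groups from ES KO to TN day 2 WT overlapped each in turn, as did the last 3 TN groups. For Gabra5 the order was NP WT, TN day 2 WT, TN day 6 KO, TN day 2 KO, NP KO, TN day 5 ICRF-193, ES KO, TN day 6 WT, ES WT, cortical ICRF-193, TN day 5 DMSO and cortical DMSO, with overlaps from TN day 6 KO to NP KO, from TN day 5 ICRF-193 to TN day 6 WT, and between cortical ICRF-193 and TN day 5 DMSO.

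For Gabra4 the order was NP WT, TN day 2 WT, ES KO, NP KO, ES WT, TN day 6 WT, TN day 6 KO, TN day 5 DMSO, TN day 2 KO, TN day 5 ICRF-193, cortical DMSO and cortical ICRF-193; the first 4 groups overlapped in turn, as did TN day 6 KO, TN day 5 DMSO and TN day 2 KO. For Gabrb1 it was NP WT, TN day 2 WT, NP KO, TN day 2 KO, ES WT, TN day 6 KO, ES KO, TN day 6 WT, TN day 5 DMSO, TN day 5 ICRF-193, cortical ICRF-193 and cortical DMSO, and only NP KO with TN day 2 KO and the 2 steps into and within the cortical groups did not overlap. For Gabra3 it was TN day 6 KO, NP WT, ES KO, TN day 2 KO, TN day 5 ICRF-193, TN day 2 WT, NP KO, ES WT, TN day 5 DMSO, cortical ICRF-193, cortical DMSO and TN day 6 WT; the first 7 overlapped in turn, and so did TN day 5 DMSO with cortical ICRF-193 and cortical DMSO with TN day 6 WT. For Gabrg3 it was TN day 2 WT, TN day 2 KO, NP KO, TN day 6 KO, TN day 5 ICRF-193, NP WT, ES KO, cortical ICRF-193, TN day 6 WT, TN day 5 DMSO, ES WT and cortical DMSO, and only cortical DMSO stood clear of its neighbour.

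**Figure D1:**
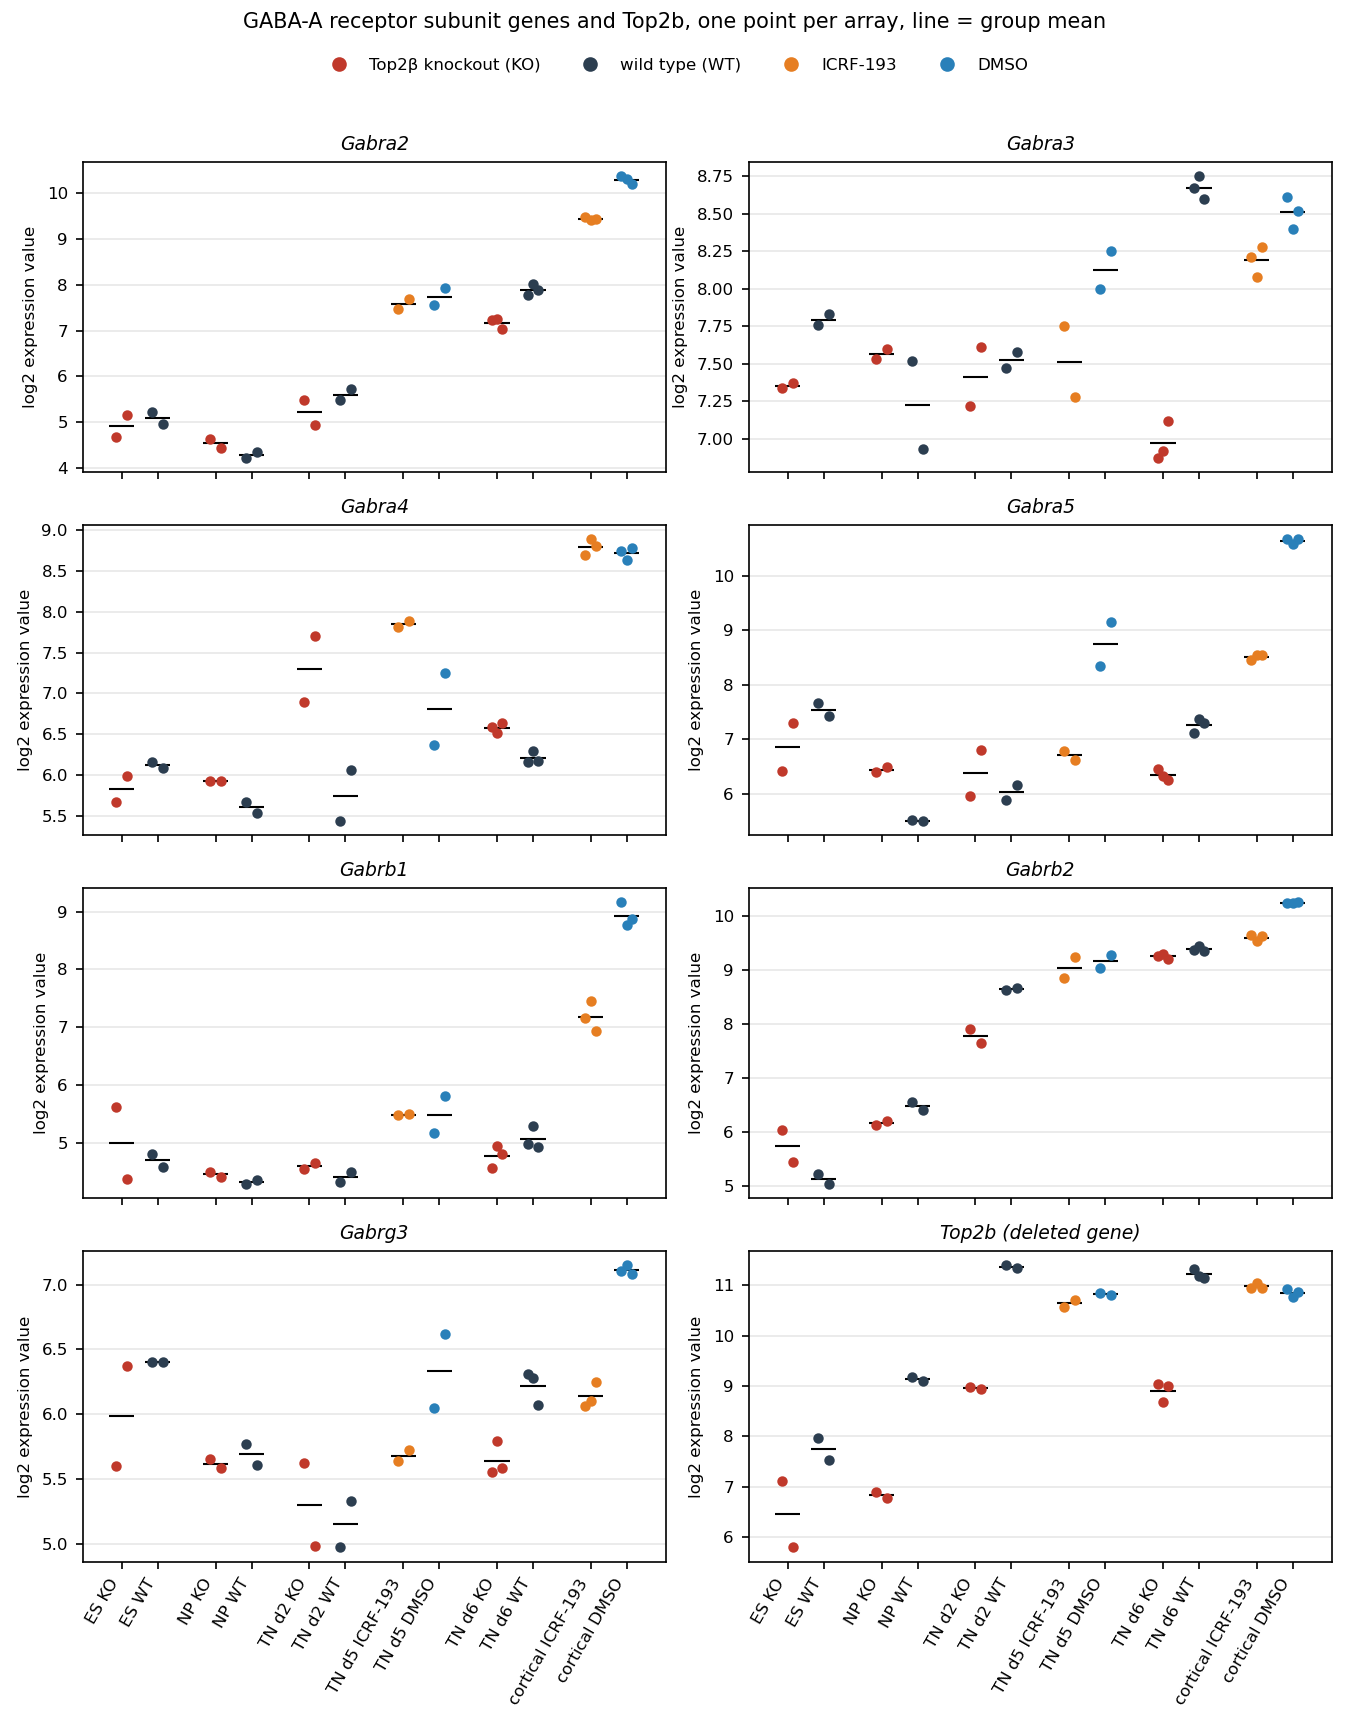
Log2 expression value (vertical axis) of the 7 subunit genes and of Top2b on each of 28 arrays, by group (horizontal axis), with the group mean as a line. Gabra5 and Gabrb1 stand highest in DMSO cortical neurons, at 10.64 and 8.93, Gabra3 splits by genotype at TN day 6, and Gabra4 stands higher in KO cells at TN day 2.

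In wild-type cells the members did not rise together along the differentiation. Gabrb2, a β subunit of the most common adult receptor, rose at every step, whereas the α subunit gene Gabra5 fell sharply between ES and NP cells and came back late. Gabrb2 read 5.22 and 5.03 in ES cells, 6.56 and 6.41 in NP cells, 8.62 and 8.66 at TN day 2, and 9.37, 9.45 and 9.35 at TN day 6, with no overlap between stages. Its steps were 1.36 ± 0.15 for NP over ES cells (log2 fold change ± SE, limma, adjusted p = 1.48e-07), 2.16 ± 0.15 for TN day 2 over NP cells (7.16e-11) and 0.75 ± 0.13 for TN day 6 over TN day 2 (0.000196). The other probe sets of Gabrb2 followed the same course in their group means.

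Gabra2, whose α2 subunit is placed at synapses on the axon initial segment among other sites, read 5.21 and 4.96 in ES cells, 4.21 and 4.35 in NP cells, 5.48 and 5.72 at TN day 2, and 7.78, 8.02 and 7.88 at TN day 6. It fell by 0.81 ± 0.17 in NP over ES cells (adjusted p = 0.00054), and rose by 1.32 ± 0.17 at TN day 2 over NP cells (1.16e-06) and by 2.29 ± 0.16 at TN day 6 over TN day 2 (8.14e-10). All its values before TN day 6 lay below the array medians of 6.12 to 6.43, so the early fall is between low values. Gabra5, whose α5 subunit carries much of the tonic current of hippocampal pyramidal cells, read 7.66 and 7.42 in ES cells, 5.52 and 5.49 in NP cells, 5.88 and 6.16 at TN day 2, and 7.12, 7.36 and 7.30 at TN day 6. The NP arrays lay below all the others, and the TN day 6 arrays below both ES arrays. The step in NP over ES cells was -2.04 ± 0.25 (adjusted p = 8.11e-07), and TN day 6 exceeded TN day 2 by 1.24 ± 0.23 (0.000235).

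Gabra3, an X-linked gene for an α subunit of early cortical neurons, read 7.76 and 7.83 in ES cells, 7.52 and 6.93 in NP cells, 7.47 and 7.58 at TN day 2, and 8.67, 8.75 and 8.60 at TN day 6. The clear step was the last one, 1.15 ± 0.15 at TN day 6 over TN day 2 (adjusted p = 5.42e-06). The fall of 0.57 ± 0.17 in NP over ES cells (0.00768) rested on the second NP array, and without it the difference was -0.27 (0.249, alternatives 0.000485 to 0.249). Gabrg3, a sparsely expressed γ subunit gene, read 6.40 and 6.40 in ES cells, 5.77 and 5.61 in NP cells, 4.97 and 5.33 at TN day 2, and 6.31, 6.28 and 6.07 at TN day 6, so that it was lowest at TN day 2. It rose by 1.07 ± 0.19 at TN day 6 over TN day 2 (0.000192). In NP cells and at TN day 2 the Gabrg3 values lay below the array medians. Its falls of 0.70 ± 0.21 in NP over ES cells (0.00897) and of 0.54 ± 0.21 at TN day 2 over NP cells (0.0384) were less firm: the first call was lost without the second NP array (0.0731, alternatives 0.00112 to 0.0731), and the second was lost without WT replicate 1 of TN day 2 or either NP array (alternatives 0.0187 to 0.291).
Gabra4 and Gabrb1 passed at no step. Gabrb1 read 4.82 and 4.59 in ES cells, 4.29 and 4.36 in NP cells, 4.33 and 4.51 at TN day 2, and 4.99, 5.30 and 4.93 at TN day 6, and its last step was 0.65 ± 0.24 (adjusted p = 0.0517). Gabra4 read 6.16 and 6.09 in ES cells and 5.67 and 5.53 in NP cells. At TN day 2 it read 5.43 and 6.06, and at TN day 6 it read 6.16, 6.29 and 6.17. Its first and last stages lay close together, at means of 6.12 and 6.21, and before rounding their arrays did not overlap.

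In all, 5 of 7 members were called in NP over ES cells (1 higher, 4 lower), where 21.7% of genes were higher and 24.5% lower. At TN day 2 over NP cells 3 were called (2 higher, 1 lower), where 21.6% of genes were higher and 26.6% lower. At TN day 6 over TN day 2, 5 members were higher and none lower, where 16.7% of genes were higher. At an unadjusted p under 0.05 limma counted all 7 higher and none lower. The share of all genes was not counted at that threshold. These steps share arrays with each other and with the KO comparisons. The median of the members' log2 fold changes was -0.57, 0.30 and 1.07 at the 3 steps, and that of all genes 0.05, -0.08 and 0.09. Of 8 measured enzymes and transporters of GABA, 5 rose at each step, Gad2, a GABA-making enzyme, among them each time, and 1 fell at TN day 2 over NP cells.

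In ES and NP cells lacking Top2β, no member was called by limma, where 0.351% and 0.627% of genes were called. At an unadjusted p under 0.05 there were 3 members in ES cells (1 higher, 2 lower) and 2 in NP cells (1 higher, 1 lower). The share of all genes was not counted at that threshold. In ES cells Gabrb2 came nearest, at 6.04 and 5.44 in KO cells, against 5.22 and 5.03 in WT cells, a difference of 0.61 ± 0.15 (adjusted p = 0.0763). The arrays did not overlap. In NP cells Gabra5 came nearest, at 6.39 and 6.48 in KO cells, against 5.52 and 5.49 in WT cells, a difference of 0.93 ± 0.25 (0.121, alternatives 0.0117 to 0.677). Its arrays did not overlap either. The KO ES arrays differed from each other: mesenchymal markers averaged between 7.87 and 9.94 on them, against 8.10 to 8.12 in WT ES cells, and leaving out KO replicate 2 took the members called from 0 to 4 (Gabra5 and Gabrg3 lower, Gabrb1 and Gabrb2 higher), while the calls over all 19938 genes went to 5018, against 70 with it. In the ES comparison with all arrays Gad2 was the only call among the other GABA and glycine lists, higher in KO cells (0.73 ± 0.13, adjusted p = 0.0155).

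At TN day 2 Gabra4 was higher and Gabrb2 lower in KO cells, and the other 5 members were not called. Gabra4, whose α4 subunit forms receptors outside synapses that classical benzodiazepines do not act on, read 6.89 and 7.70 in KO cells, against 5.43 and 6.06 in WT cells. Each KO array lay above both WT arrays, though the replicates of each genotype lay far apart. Gabra4 rose by 1.55 ± 0.23 (2.93-fold, adjusted p = 0.000156); fitted on these 4 arrays alone, the adjusted p was 0.0609 (alternatives 2.45e-05 to 0.0609). Gabrb2 read 7.91 and 7.65 in KO cells, against 8.62 and 8.66 in WT cells, with no overlap, and fell by 0.86 ± 0.15 (1.81-fold, 0.000567). Both other probe sets of Gabrb2 were lower in KO cells too, at group means of 7.25 and 6.23 in KO cells, against 8.32 and 7.29 in WT cells.
Of the 7 members 1 was higher, where 5.49% of genes were higher, and 1 lower, where 5.97% were. Gabra2 read 5.49 and 4.93 in KO cells, against 5.48 and 5.72 in WT cells (difference -0.38 ± 0.17, adjusted p = 0.175). Gabra3, Gabra5, Gabrb1 and Gabrg3 differed by -0.11 to 0.36.

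Several genes of the proteins around the receptor were also lower in KO cells at TN day 2. Of 19 measured genes of the inhibitory postsynapse and of receptor trafficking, 5 were lower in KO cells, namely Slitrk3, an adhesion protein of inhibitory synapses (-0.69 ± 0.13), Lhfpl4, an auxiliary subunit that anchors the receptor (-0.56 ± 0.11), its relative Lhfpl3 (-0.69 ± 0.17), Nlgn2, the neuroligin of inhibitory synapses (-0.37 ± 0.12), and Gabarapl2, a relative of the receptor-associated protein GABARAP (-0.28 ± 0.09). Insyn2a, an inhibitory synaptic scaffold component, was higher (0.65 ± 0.10). Of 8 genes of GABA synthesis, breakdown and transport, 1 was called, Slc6a13, a GABA transporter, higher in KO cells (0.50 ± 0.16). The median of the postsynapse list was -0.27, and that of all genes -0.04. Among the chloride transporters, 1 of 5 was called, Slc12a4, a potassium-chloride cotransporter, higher in KO cells (1.32 ± 0.24). Pan-neuronal markers moved with these genes: 9 of 15 were lower in KO cells, averaging 10.08 to 10.36 on the KO arrays, against 10.70 to 10.77 on the WT arrays. Mesenchymal markers averaged 9.19 to 9.48 on the KO arrays, against 7.23 to 9.23 on the WT arrays, and 3 of 8 were higher. Cell cycle genes averaged 9.70 to 9.71 on the KO arrays, against 9.06 to 9.29 on the WT arrays, and 3 of 9 were higher. Their part in the members' differences was not tested.

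At TN day 6 the genes of 3 of the 4 α subunits and of γ3 were lower in KO cells, Gabra3 by the most. Gabra3 read 6.87, 6.92 and 7.12 in KO cells, against 8.67, 8.75 and 8.60 in WT cells. The highest KO array lay well below the lowest WT array, and the KO cells were at the lowest level of all 12 groups. Gabra3 fell by 1.71 ± 0.14 (3.26-fold, adjusted p = 1.34e-08). Gabra5 read 6.45, 6.33 and 6.24 in KO cells, against 7.12, 7.36 and 7.30 in WT cells, again without overlap, and fell by 0.92 ± 0.20 (1.89-fold, 0.0039). Gabra2 read 7.22, 7.26 and 7.04 in KO cells, against 7.78, 8.02 and 7.88 in WT cells. All 3 KO arrays were below all WT arrays, and the fall was 0.72 ± 0.14 (1.64-fold, 0.00133).
Gabrg3 read 5.55, 5.79 and 5.58 in KO cells, against 6.31, 6.28 and 6.07 in WT cells, and fell by 0.58 ± 0.17 (1.49-fold, 0.0326). That call was lost without any 1 of 4 of the 6 arrays, WT replicates 1 and 2 and KO replicates 1 and 3 (alternatives 0.00122 to 0.123). Of the 7 members 4 were lower and none higher, where 4.8% of genes were lower and 5.38% higher. At an unadjusted p under 0.05 limma gave the same counts of members, and the share of all genes was not counted. The other members were not called. Gabra4 read 6.59, 6.51 and 6.64 in KO cells, against 6.16, 6.29 and 6.17 in WT cells, a difference of 0.37 ± 0.19 (0.281). Its groups did not overlap. Gabrb2 read 9.25, 9.29 and 9.21 in KO cells, against 9.37, 9.45 and 9.35 in WT cells (-0.14 ± 0.12, 0.626). Gabrb1 read 4.57, 4.95 and 4.81 in KO cells, against 4.99, 5.30 and 4.93 in WT cells (-0.29 ± 0.22, 0.542), with overlap.

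Other parts of the GABA system moved in both directions at TN day 6. Gabrg1, a γ subunit gene next to Gabra2 and the only other subunit called among 9 measured, read 4.88, 5.18 and 4.93 in KO cells, against 4.34, 4.25 and 4.48 in WT cells (0.64 ± 0.16, adjusted p = 0.00893). These Gabrg1 values all lay below the array medians. Of 8 genes of GABA synthesis, breakdown and transport, 3 were higher in KO cells: Slc6a11, a GABA transporter of astrocytes (1.24 ± 0.12), Abat, the GABA transaminase (0.71 ± 0.19), and Aldh5a1, the next enzyme of breakdown (0.44 ± 0.09). Slc32a1, which loads GABA into vesicles, was lower (-0.70 ± 0.11). Gabbr2, a GABA-B receptor subunit, was lower (-0.40 ± 0.10). Of the 5 chloride transporters, Slc12a7 (0.69 ± 0.10) and Slc12a5, the neuronal chloride extruder KCC2 (0.36 ± 0.11, 0.0485), were higher. Among the 19 genes of the inhibitory postsynapse and trafficking, Mdga1, which binds neuroligins (-0.72 ± 0.09), Lhfpl3 (-0.48 ± 0.14) and Gabarapl2 (-0.45 ± 0.07) were lower and Insyn2a was higher (0.58 ± 0.08).
Markers of progenitors and dividing cells were higher in the same KO cells, where 8 of 12 progenitor genes and all 9 measured cell cycle genes were called. The progenitor genes averaged 8.18 to 8.55 on the KO arrays, against 7.34 to 7.49 on the WT arrays, and the cell cycle genes 7.71 to 8.19, against 6.79 to 7.03. Pan-neuronal markers averaged 10.85 to 10.91 on the KO arrays, against 10.93 to 10.98 on the WT arrays, with 2 of 15 higher and 2 lower. Astrocyte markers averaged 6.86 to 7.08 on the KO arrays, against 6.48 to 6.53 on the WT arrays, with 2 of 8 higher (Fgfr3 and Gja1), and oligodendrocyte lineage markers 6.18 to 6.47, against 5.83 to 6.03, with 2 of 7 higher. Their part in the members' differences was not tested.

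At TN day 5, Gabra5 was lower and Gabra4 higher with ICRF-193. Gabra5 read 6.78 and 6.62 with ICRF-193, against 8.35 and 9.15 with DMSO. Both treated arrays lay far below the lower DMSO array, and the fall was 2.05 ± 0.25 (4.15-fold, adjusted p = 7.02e-06). Gabra4 read 7.81 and 7.89 with ICRF-193, against 6.37 and 7.25 with DMSO. The groups did not overlap, but the DMSO arrays lay far apart. Gabra4 rose by 1.04 ± 0.23 (2.06-fold, 0.00611), by 0.60 without DMSO replicate 1, where the call was lost as it was in a fit of these 4 arrays alone (alternatives 0.000431 to 0.124). Gabra3 read 7.75 and 7.28 with ICRF-193, against 8.0 and 8.25 with DMSO, and fell by 0.61 ± 0.17 (1.53-fold, 0.0238); that call was lost with array weights, in a fit of these 4 arrays alone, and without DMSO replicate 2 (-0.49) or ICRF-193 replicate 2 (-0.38), with an adjusted p of up to 0.253.
Gabrg3 read 5.64 and 5.72 with ICRF-193, against 6.05 and 6.62 with DMSO (-0.65 ± 0.21, adjusted p = 0.057), without overlap. Under 4 alternatives it passed, 2 of them other scalings of the arrays. Gabra2, at 7.46 and 7.69 with ICRF-193, against 7.55 and 7.92 with DMSO, Gabrb1 and Gabrb2 overlapped between the treatments and differed by -0.16 to 0.00.

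Of the 7 members 1 was higher at TN day 5, where 2.51% of genes were higher, and 2 lower, where 6.37% were. Centring each array on its median gave 15.7% higher among all calls of this comparison, against 28.3% with the values as deposited. Few other GABA genes were called: Gad2 was higher with ICRF-193 (0.74 ± 0.13), as was Insyn2a (1.31 ± 0.10), and Gabbr2 was lower (-0.41 ± 0.12). Of 7 genes of glycine receptors and transporters, the other fast inhibitory system, 2 were lower, Glra2 (-0.76 ± 0.21) and Glra3 (-1.38 ± 0.33). Progenitor markers were lower with ICRF-193 in 6 of 12 genes, averaging 6.29 on both ICRF-193 arrays, against 7.40 to 8.02 on the DMSO arrays, and cell cycle genes in 8 of 9. Pan-neuronal markers averaged 10.57 to 10.63 with ICRF-193, against 10.68 to 10.77 with DMSO. Their part in the members' differences was not tested.

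In cortical neurons 5 members were lower with ICRF-193, among them both β subunit genes, and Gabra5 and Gabrb1 fell most. Gabra5 read 8.45, 8.54 and 8.54 with ICRF-193, against 10.67, 10.59 and 10.67 with DMSO. It fell by 2.13 ± 0.20 (4.38-fold, adjusted p = 7.6e-08), with no overlap. Gabrb1, the β subunit gene beside Gabra4, read 7.16, 7.46 and 6.94 with ICRF-193, against 9.16, 8.76 and 8.87 with DMSO. All treated arrays lay far below all DMSO arrays, and the fall was 1.74 ± 0.22 (3.35-fold, 3.62e-06).
Gabrg3 read 6.06, 6.10 and 6.25 with ICRF-193, against 7.11, 7.15 and 7.08 with DMSO, a fall of 0.97 ± 0.17 (1.96-fold, 0.000252). Gabra2 read 9.48, 9.42 and 9.44 with ICRF-193, against 10.37, 10.30 and 10.21 with DMSO, a fall of 0.85 ± 0.14 (1.8-fold, 0.000126). Gabrb2 read 9.64, 9.53 and 9.62 with ICRF-193, against 10.24, 10.24 and 10.25 with DMSO, a fall of 0.65 ± 0.12 (1.56-fold, 0.000453). In none of the 5 genes did the treatments overlap, though the share of all genes without overlap was not counted. Each of the 5 stayed called under every alternative run.

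Gabra4, beside Gabrb1 in the genome, read 8.70, 8.89 and 8.81 with ICRF-193, against 8.74, 8.64 and 8.78 with DMSO, with overlap, and differed by 0.08 ± 0.19 (adjusted p = 0.79); the 95% interval was -0.31 to 0.47, and centring arrays on their medians turned the difference to -0.04. Gabra3 read 8.21, 8.08 and 8.28 with ICRF-193, against 8.61, 8.40 and 8.52 with DMSO, without overlap (-0.32 ± 0.14, 0.097, alternatives 0.00787 to 0.376).
Of the 7 members 5 were lower, where 13.7% of genes were lower, and none higher, where 9.72% were. At an unadjusted p under 0.05 limma gave 6 lower and none higher. The share of all genes was not counted at that threshold. The members' median was -0.85, and that of all genes 0.04. Centring each array on its median moved the median of all genes by -0.12 and the higher share of all calls to 16.2%, against 41.6% as deposited; the members' falls were larger than that shift.

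**Figure D2:**
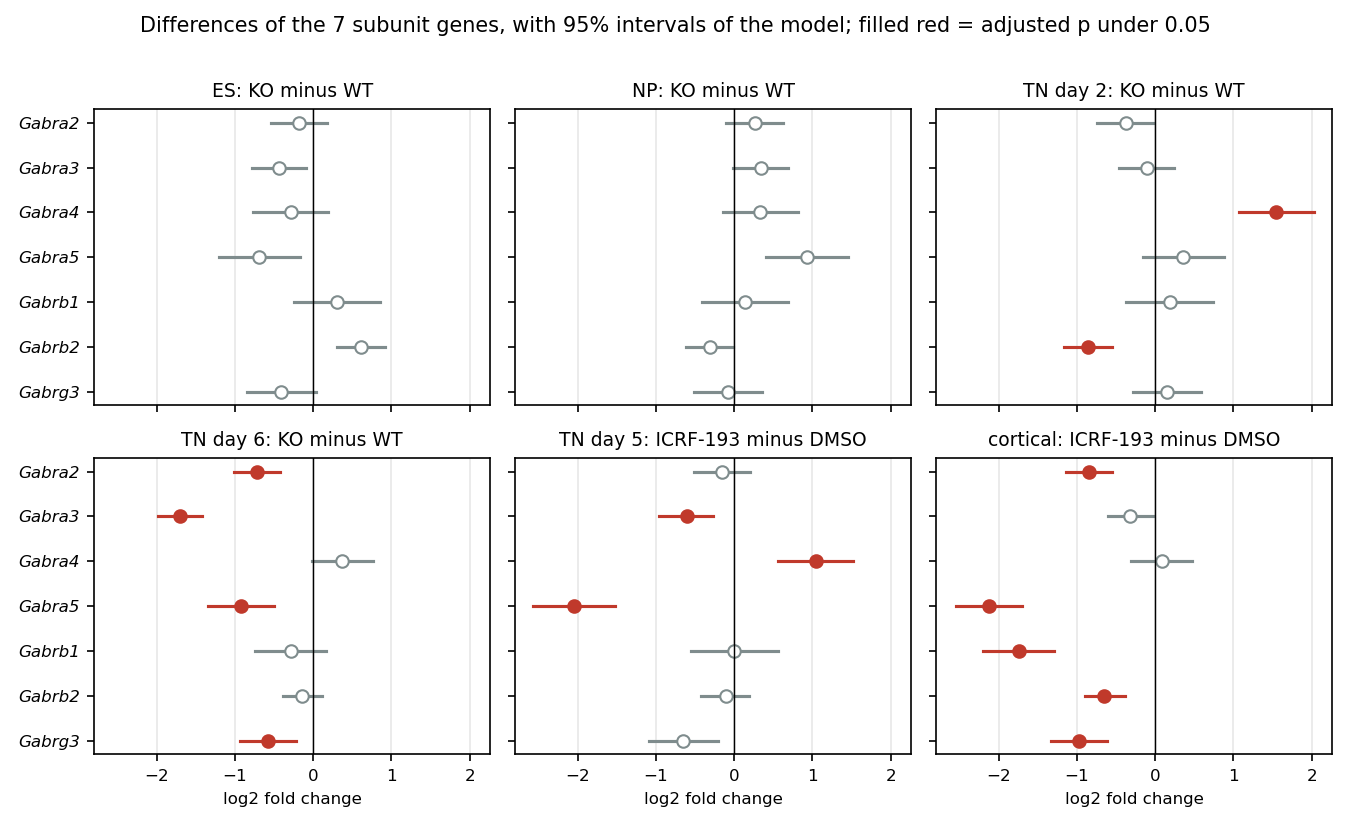
Log2 fold change (horizontal axis) of the 7 subunit genes (rows) in the 6 comparisons, KO minus WT or ICRF-193 minus DMSO, as points with 95% intervals of the model; filled red points have an adjusted p under 0.05. Gabra5 is the farthest left under ICRF-193 (-2.05 at TN day 5 and -2.13 in cortical neurons) and Gabra3 at TN day 6 (-1.71).

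Other genes of the GABA system in cortical neurons were called in both directions. Gabrg1 read 7.96, 7.96 and 7.92 with ICRF-193, against 7.14, 7.06 and 7.45 with DMSO, and rose by 0.73 ± 0.16 (adjusted p = 0.00168), the only call among the 9 other subunits measured. Gphn, which encodes gephyrin, the scaffold that holds GABA-A and glycine receptors at synapses, fell by 0.53 ± 0.09, and Lhfpl3, a relative of Lhfpl4, fell by 1.09 ± 0.14. Trak1, a motor adaptor that carries cargo along microtubules, fell by 0.33 ± 0.10, while Insyn2a (0.53 ± 0.08) and Mdga1 (0.37 ± 0.09), rose; the other 14 of 19 genes of that list were not called.
Gad2 (0.80 ± 0.11), Slc6a13 (0.45 ± 0.13) and the chloride transporters Slc12a5 (0.64 ± 0.11) and Slc12a2, the importer NKCC1 (0.34 ± 0.09), rose. Among GABA-B receptor genes, Kctd16, an auxiliary subunit, fell by 1.23 ± 0.22 and Gabbr2 by 0.61 ± 0.10. Slc6a11 fell by 1.94 ± 0.12. That transporter belongs to astrocytes, and 7 of 8 astrocyte markers were lower: they averaged 6.52 to 6.55 with ICRF-193, against 7.94 to 8.12 with DMSO. All 8 microglia markers were higher (7.17 to 7.31 with ICRF-193, against 6.44 to 6.54 with DMSO), and all 9 cell cycle genes were lower. Oligodendrocyte lineage markers averaged 5.95 to 5.99 with ICRF-193, against 7.24 to 7.37 with DMSO, with 4 of 7 lower, and progenitor markers 7.49 to 7.59, against 8.39 to 8.42, with 6 of 12 lower and 1 higher. Pan-neuronal markers averaged 10.55 to 10.60 with ICRF-193, against 10.74 to 10.79 with DMSO, with 2 of 15 higher and 4 lower. Their part in the members' differences was not tested.

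**Figure D3:**
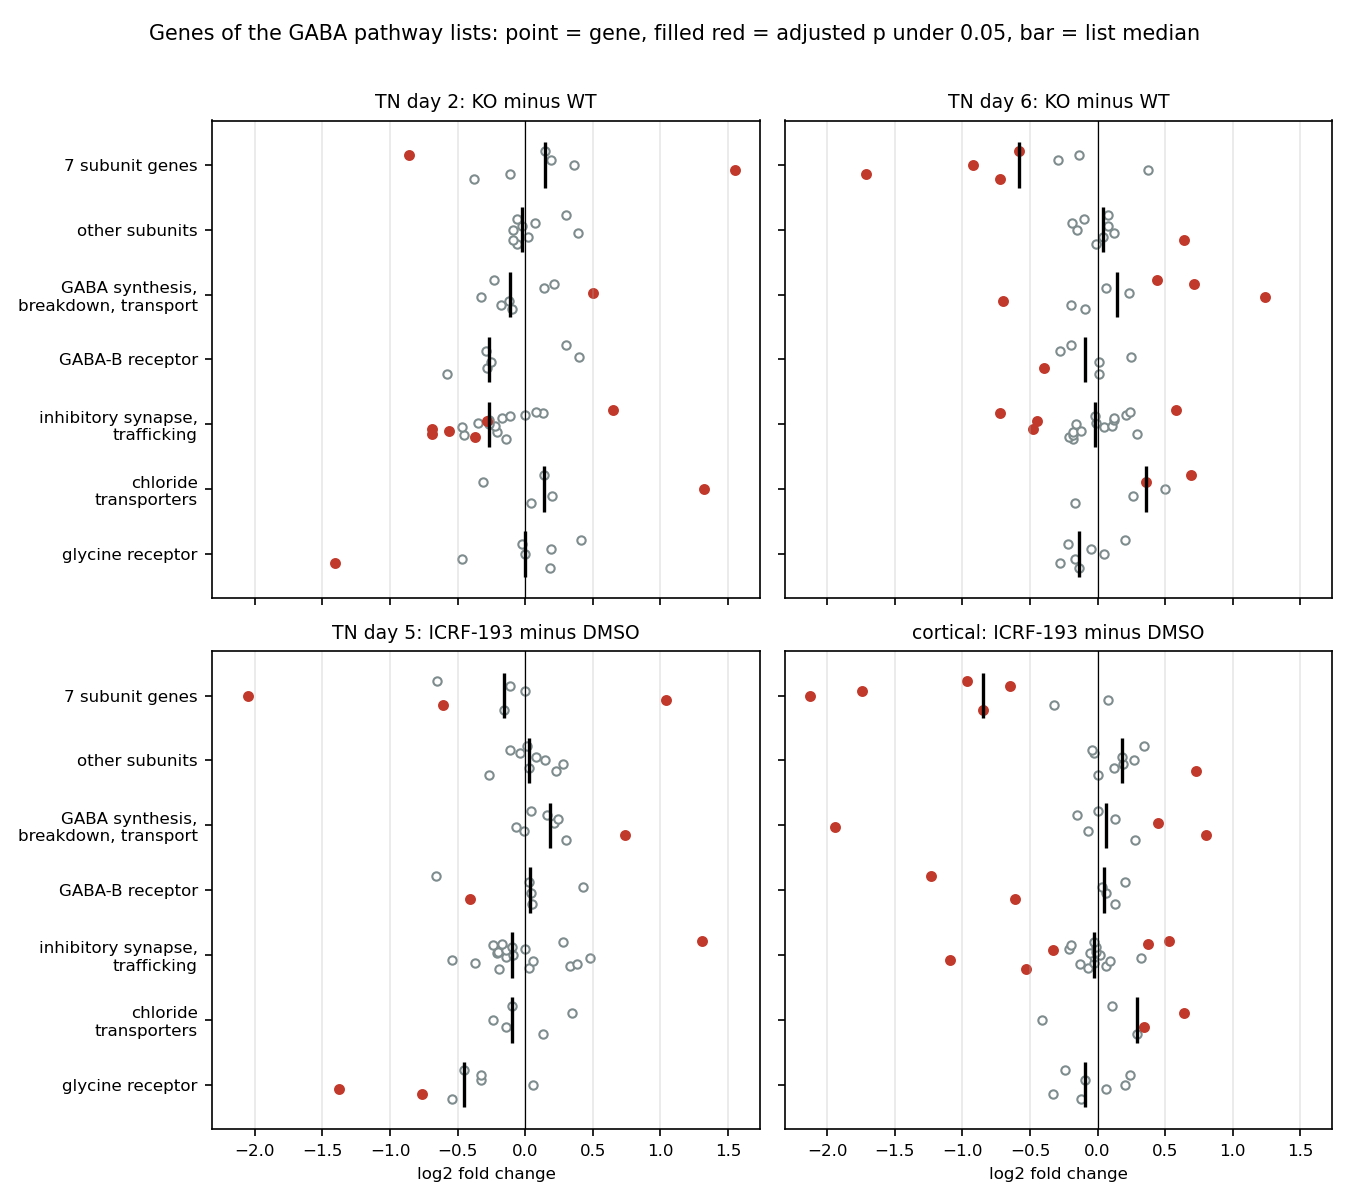
Log2 fold change (horizontal axis) of each measured gene of 7 GABA and glycine pathway lists (rows) in 4 comparisons; filled red points have an adjusted p under 0.05 and bars are list medians. The bar of the 7 subunit genes lies at 0.15 at TN day 2, -0.58 at TN day 6, -0.16 at TN day 5 and -0.85 in cortical neurons.

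With DMSO, cortical neurons exceeded TN day 5 cells in all 7 members, where 24.4% of genes were higher in cortical neurons. Gabrb1 differed most, at 9.16, 8.76 and 8.87 in cortical neurons, against 5.18 and 5.81 at TN day 5 (3.44 ± 0.24, 10.8-fold, adjusted p = 3.53e-10). Gabra2 was higher by 2.56 ± 0.16, Gabra4 by 1.91 ± 0.21, Gabra5 by 1.89 ± 0.23, Gabrb2 by 1.08 ± 0.13 and Gabrg3 by 0.78 ± 0.19. No member overlapped between the cultures, though the share of all genes without overlap was not counted. Gabra3 differed least, by 0.38 ± 0.15 (0.0466), a call lost with quantile normalization and without TN day 5 DMSO replicate 1 or cortical DMSO replicate 1 or 3 (alternatives 0.00355 to 0.346). Without TN day 5 DMSO replicate 1 the Gabrg3 call was lost too (0.50, adjusted p = 0.112, alternatives 0.000143 to 0.112). Of the 9 other subunits, 1 was higher in cortical neurons, Gabrg1 (2.59 ± 0.18), and 3 were lower. These DMSO arrays are also those the ICRF-193 arrays were set against. The cultures differed in their markers: 9 of 11 glutamatergic and 11 of 12 GABAergic markers were higher in cortical neurons, and 7 of 8 mesenchymal markers were lower. Centring arrays on their medians moved the median of all genes by 0.22 and the higher share of calls to 81.6%, against 54.4% as deposited.

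The knockout's effect differed between stages for several members when the difference itself was tested. Between TN day 6 and TN day 2, 4 of 7 members passed, where 4.8% of genes did. Gabra3 went furthest: KO minus WT was -1.71 at TN day 6 and -0.11 at TN day 2, a difference of -1.60 ± 0.22 (adjusted p = 0.000107), called under every alternative. For Gabra5 it was -0.92 at TN day 6 and 0.36 at TN day 2 (difference -1.28 ± 0.32, 0.0222, alternatives 0.00276 to 0.215). For Gabra4 it was 0.37 at TN day 6 and 1.55 at TN day 2 (-1.18 ± 0.30, 0.0237, alternatives 0.00249 to 0.234). Gabrb2 had -0.14 at TN day 6 and -0.86 at TN day 2 (0.72 ± 0.19, 0.0315, alternatives 0.00323 to 0.201). These last 3 calls were each lost without WT replicate 1 or KO replicate 2 of TN day 2. That of Gabra5 was lost also without WT replicate 2 of TN day 6, that of Gabra4 without WT or KO replicate 2 of TN day 6 and in a fit of the compared arrays alone, and that of Gabrb2 without any 1 of 5 further arrays. Between TN day 2 and NP cells only Gabra4 passed (1.22 ± 0.33, 0.047), where 2.71% of genes did, and 9 of 15 alternatives lost it (alternatives 0.00518 to 0.328), among them leaving out any NP array, WT replicate 1 or KO replicate 2 of TN day 2. Both tests use the TN day 2 arrays. Between NP and ES cells limma called no member, where 0.256% of genes passed. By limma, 3 members had an unadjusted p under 0.05 (2 higher, 1 lower). The share of all genes was not counted at that threshold.

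The ICRF-193 minus DMSO value of Gabrb1 differed between the 2 cultures: it was -1.74 in cortical neurons and 0.00 at TN day 5, a difference of -1.75 ± 0.34 (adjusted p = 0.00296), where 4.37% of genes passed. At TN day 5 Gabrb1 was low already with DMSO, at 5.18 and 5.81. For Gabra5 the difference between the cultures was -0.08 ± 0.32, with a 95% interval of -0.75 to 0.59. The effect of KO at TN day 6 was set against that of ICRF-193 at TN day 5, and 2 members passed, where 7.07% of genes did. The 2 effects differ in day, experiment and control level as well as in treatment. Gabra5 averaged 8.75 with DMSO and 6.70 with ICRF-193 at TN day 5, against 7.26 in WT and 6.34 in KO cells at TN day 6. Gabra3 averaged 8.13 with DMSO and 7.51 with ICRF-193, against 8.68 in WT and 6.97 in KO cells. Gabra3 fell further in KO cells (difference -1.09 ± 0.22, 0.00269), and Gabra5 fell less (1.13 ± 0.32, 0.0357, lost in 8 of 17 alternatives, which gave 0.00596 to 0.275).

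Of the 7 members, 6 span over 100 kb of genome in the RefSeq annotation of GRCm38.p6, against 11.6% of the 19856 genes with a span. Gabrg3 spans 670.8 kb, Gabrb1 491.7 kb, Gabra3 224.2 kb, Gabrb2 213.1 kb, Gabra5 183.3 kb and Gabra2 137.5 kb. Gabra4 is the shortest of the 7, at 88.6 kb, though 86.6% of genes have a shorter span. It was the one member called higher in any of the 6 comparisons, a feature noticed after its values were seen. Among the 2294 genes over 100 kb, 18.9% were lower and 2.8% higher with ICRF-193 at TN day 5, against 6.37% and 2.51% of all genes. In cortical neurons 32.3% were lower and 8.9% higher, against 13.7% and 9.72% of all genes. In KO cells at TN day 2, 16.3% were lower and 8.9% higher, against 5.97% and 5.49% of all genes. At TN day 6, 14.2% were lower and 8.0% higher, against 4.8% and 5.38% of all genes. The 9 other subunit genes measured all span under 100 kb, and their group averages were low, at 4.78 to 5.37. Whether span has a part in the differences of the members or of the other subunits was not tested. Because the target assay was double-stranded, reads of opposite strands cannot be told apart where Gabra4 and Gabrb1 overlap (388 bases).

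Over the 12 group means, the members were most alike between Gabra5 and Gabrb1 (Pearson's r = 0.90) and between Gabra5 and Gabrg3 (0.89), and least alike between Gabrb2 and Gabrg3 (0.23). These values describe groups that share stages and treatments. The genes most like each member were sought outside the GABA-A and GABA-rho subunit genes. They were Map9 for Gabra2 (0.987), Nrn1 for Gabra3 (0.843), Pcbd2 for Gabra4 (0.944), Gmds for Gabra5 (0.948), 1700001L19Rik for Gabrb1 (0.988), Adcy5 for Gabrb2 (0.993) and Arhgap44 for Gabrg3 (0.955). Kctd16, the GABA-B auxiliary subunit, was among the 3 genes most like Gabra5 (0.934), and Kcna4, a voltage-gated potassium channel, among the 3 most like Gabra2 (0.980).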

How the data were processed

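Total RNA was measured on Affymetrix whole-transcript arrays, 28 in 12 groups taken from the labels. The deposited table held log2 expression values. The submitters' processing notes name oligo 1.14.0 as the authors' software. Background correction and summarization were steps not given in the sources used here, nor was the base of the logarithm, read as 2 because the values ran to 13.99 at most and 1.96 at least. No further normalization was applied. Of 35556 probe sets, 21789 had 1 gene symbol in the platform annotation, 1621 had several and 12146 had no entry; the first kind gave 19938 genes, and for 999 genes with several probe sets the one with the highest mean was kept.

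All 28 arrays entered 1 model with a mean for each of 12 groups, fitted in R 4.3.3 by limma 3.58.1 (16 residual and 4.87 prior degrees of freedom), so the spread is shared by all groups. Its moderated tests were two-sided and adjusted by Benjamini and Hochberg over 19938 genes; an adjusted p under 0.05 was a call. Errors of fold changes are standard errors. The number of arrays limits the precision, and since no label calls replicates separate cultures or animals, p-values reflect array-to-array spread alone, which may be technical. There were 6 main comparisons, 4 between stages or cultures and 5 differences between effects. The code was tested on simulated data. The 7 members and the 19 lists, with 171 of 181 symbols measured, were chosen with earlier results of these data known. All members are named; of other GABA and glycine lists at least the 3 largest called changes in the knockout and ICRF-193 comparisons are named, and steps between stages or cultures are given mainly as counts; like genes are taken from the 3 with the highest Pearson's r. Alternatives were other scalings, a filter on low values, a fit of the compared arrays alone, array weights, a replicate block, means of probe sets and leaving out each array. Promoter windows came from RefSeq on GRCm38.p6 by gene symbol, for 7 of 7 members; the files name no build.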

Additional observations from a re-analysis of the deposited data

Results flagged for a closer look

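Differences between effects that passed the test itself (limma, adjusted over all genes) were these. For the knockout's effect at TN day 6 minus that at TN day 2, Gabra3 had -1.60 ± 0.22 (log2 ± SE, adjusted p = 0.000107), Gabra5 -1.28 ± 0.32 (0.0222), Gabra4 -1.18 ± 0.30 (0.0237) and Gabrb2 0.72 ± 0.19 (0.0315). For the knockout's effect at TN day 2 minus that in NP cells, Gabra4 had 1.22 ± 0.33 (0.047). For ICRF-193 in cortical neurons minus ICRF-193 at TN day 5, Gabrb1 had -1.75 ± 0.34 (0.00296). For the knockout at TN day 6 minus ICRF-193 at TN day 5, Gabra3 had -1.09 ± 0.22 (0.00269) and Gabra5 1.13 ± 0.32 (0.0357). Groups of 2 or 3 arrays were too small for the test of a single array that stands apart.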

How the results depend on the processing

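In the 10 comparisons of 2 groups, 34 of 70 pairs of a member and a comparison were called; 25 of these stayed called under every alternative run and 9 were lost under at least 1. Of the 36 not called, 15 passed under at least 1 alternative and 11 turned sign. In the 5 differences between effects, 8 of 35 pairs were called, 3 stayed called under every alternative and 5 were lost under at least 1; of the 27 not called, 7 passed under at least 1 alternative and 8 turned sign. None of the 42 called pairs turned sign. The cause of these changes was not tested.

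Members called per comparison changed as follows. In ES cells (0 called) the replicate block gave 1 and leaving out 1 array gave 0 to 4, the 4 without KO replicate 2. In NP cells (0) a fit of the compared arrays alone and array weights gave 1 each. A fit of the compared arrays alone gave 1 at TN day 2 (2 called) and 1 at TN day 5 (3 called). For NP over ES cells (5) leaving out 1 array gave 3 to 5. For the knockout's effect in NP minus ES cells (0), median centring, the filter on low values and the replicate block gave 1 each, and leaving out 1 array 0 to 3. For TN day 2 minus NP (1), quantile normalization, median centring and the compared arrays alone gave 0, and leaving out 1 array 0 to 2; for TN day 6 minus TN day 2 (4) leaving out 1 array gave 1 to 4. For cortical minus TN day 5 ICRF-193 (1), quantile normalization, the compared arrays alone and the replicate block gave 2 each, and leaving out 1 array 1 to 3. For the knockout at TN day 6 minus ICRF-193 at TN day 5 (2), the replicate block gave 1, and leaving out 1 array 1 to 2.

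Counts over all genes moved too. A fit of the compared arrays alone called 0 genes in ES cells (70 in the 12-group model), 201 in NP cells (125), 315 at TN day 2 (2284), 385 at TN day 5 (1772), 7960 in cortical neurons (4664), 0 for NP minus ES (51) and 188 for TN day 2 minus NP (541). Array weights called 0 in ES cells, 251 in NP cells, 3816 at TN day 6 (2030), 742 at TN day 5, 8967 in cortical neurons, 0 for NP minus ES and 1555 for TN day 6 minus TN day 2 (957). Leaving out 1 array gave 5 to 5018 in ES cells (5018 without KO replicate 2), 37 to 72 in NP cells, 504 to 2364 at TN day 2 (504 without KO replicate 2) and 684 to 2291 at TN day 5 (684 without DMSO replicate 2). Median centring moved the higher share of calls to 9.8% in ES cells (24.3% as deposited), 34.7% for TN day 2 minus NP (50.8%), 28.4% for cortical minus TN day 5 ICRF-193 (38.6%) and 85.9% for the knockout at TN day 6 minus ICRF-193 at TN day 5 (73.3%).

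In the comparisons of 2 groups, signs turned among values not called. Leaving out 1 array gave -0.42 to 0.06 for Gabra2 and -0.31 to 0.93 for Gabrb1 in ES cells, -0.16 to 0.00 for Gabrg3 in NP cells, -0.30 to 0.08 for Gabra3, -0.06 to 0.78 for Gabra5 and -0.17 to 0.48 for Gabrg3 at TN day 2, -0.35 to 0.03 for Gabra2, -0.31 to 0.32 for Gabrb1 and -0.31 to 0.08 for Gabrb2 at TN day 5, and -0.17 to 0.45 for Gabra4 at TN day 2 over NP cells. Without TN day 2 WT replicate 1, Gabrg3 had -0.03; without TN day 5 DMSO replicate 2, Gabrb2 had 0.01. At TN day 5, quantile normalization gave -0.11 for Gabrb1 and 0.00 for Gabrb2, and median centring -0.06 for Gabrb1; in cortical neurons median centring gave -0.04 for Gabra4.

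Groups share replicate numbers, which no label says mark a shared culture or day. They were not taken to pair the arrays: the correlation of their deviations was 0.04 in ES cells, -0.23 in NP cells, 0.14 at TN day 2, -0.02 to 0.07 at TN day 6, 0.38 at TN day 5 and -0.06 to -0.01 in cortical neurons. The replicate block left the members called at 2 at TN day 2, 3 at TN day 5 and 5 in cortical neurons, and at TN day 6 gave 3 in place of 4, without Gabrg3. Under it Gabrg3 at TN day 2 over NP cells and Gabra3 between the DMSO cultures were not called. A crossed pairing in NP cells, chosen after seeing the data, called 0 members and 121 genes against 125. Groups of 2 arrays limit what can be seen: the median standard error was 0.14 for 2 arrays against 2 and 0.12 for 3 against 3.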

Other observations

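Of 7 glycine receptor and transporter genes, 1 was called at TN day 2. Glra2, the α subunit of embryonic glycine receptors, was lower in KO cells at TN day 2 (-1.41 ± 0.21, log2 ± SE, limma, adjusted p = 0.000139), where it averaged 7.34 in KO cells and 8.75 in WT cells.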
